A study of Mus musculus with 22 samples.

Results

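NF-kappaB subunits and their inhibitors were followed in the testes of mice with and without the transcription factor MLX. The 10 genes, *Nfkb1*, *Nfkb2*, *Rel*, *Rela*, *Relb*, *Nfkbia*, *Nfkbib*, *Nfkbie*, *Nfkbiz* and *Tnfaip3*, were taken by symbol from a table of 17931 gene symbols, and all 10 were among the 14640 genes with enough counts to test. RNA of whole testes was sequenced from 3 WT males, verified as fertile breeders, and 3 constitutive MLX KO males, all aged 7 months and untreated. They were littermates in 3 numbered pairs (WT1 with KO1 and so on). The *Mlx* allele was targeted in 129S4 embryonic stem cells, with the exons that encode the DNA-binding and dimerization domain flanked by loxP sites. Those exons were deleted by breeding the resulting chimeras to mice that carry a Cre driven from *Meox2*, and the Cre was crossed out afterwards. Lines from independent clones existed, and the methods do not say which line gave these RNA samples.

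NF-kappaB is a family of dimeric transcription factors that are held inactive by IkappaB proteins until a signal leads to IkappaB degradation (the canonical arm) or to processing of the *Nfkb2* precursor, which then acts with RELB (the non-canonical arm). The inhibitors are partly targets themselves, so that *Nfkbia*, *Nfkbie* and *Tnfaip3* are known as feedback genes of the pathway. In the testis, NF-kappaB proteins have been described in Sertoli cells and germ cells, and macrophages of the interstitium also carry the pathway.

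Promoter sequences of the genes were read from RefSeq (build GRCm38.p6) over windows from 250 bases before to 50 bases after an annotated start, since the feedback genes are described as direct targets. Of the 10 genes, 7 had a window, 10 windows in all. *Nfkb1*, *Relb* and *Nfkbiz* had no entry. The windows were searched on both strands for the 10-base kappaB consensus, the binding motif of NF-kappaB, and for the E-box CACGTG, a motif bound by factors of the MYC network to which MLX belongs. A match to the kappaB consensus was present in windows of 5 of the 7 genes (*Nfkb2*, *Nfkbia*, *Nfkbie*, *Rel* and *Tnfaip3*) and not in the windows of *Rela* and *Nfkbib*. Among 27025 genes with a window, 9.55% held such a match, and 8.46% of all 32851 windows did. A gene was counted if any of its windows matched, so a gene with several windows had more opportunity for a match. An E-box was found for 1 gene, *Tnfaip3*, against 8.09% of all genes. A match describes the letters only. *Nfkb2* had 3 windows, each with a match, and *Tnfaip3* had 2, of which 1 (chr10:19011914-19012213) held neither motif. The *Nfkb2* windows all lie inside its annotated span, which begins at chr19:46300994, so none covers the 5′ end of that span. For each of the 3 genes that were higher in MLX KO testes and had an entry, 1 window is shown (for *Nfkb2*, 1 of its 3), with the *Tnfaip3* window that carried both motifs and the *Rela* window, which carried neither. They are given 5′ to 3′ on the strand of the gene, with matches in capitals and all other bases in lower case. No match to one motif overlapped a match to the other.
Nfkb2, chr19:46304487-46304786, plus strand: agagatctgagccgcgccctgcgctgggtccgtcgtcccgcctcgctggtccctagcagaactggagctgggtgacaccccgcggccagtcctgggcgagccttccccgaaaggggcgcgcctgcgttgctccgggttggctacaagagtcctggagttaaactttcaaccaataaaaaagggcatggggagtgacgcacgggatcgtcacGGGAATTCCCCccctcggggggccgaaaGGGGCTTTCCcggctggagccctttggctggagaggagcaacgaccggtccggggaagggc
Nfkbia, chr12:55492598-55492897, minus strand: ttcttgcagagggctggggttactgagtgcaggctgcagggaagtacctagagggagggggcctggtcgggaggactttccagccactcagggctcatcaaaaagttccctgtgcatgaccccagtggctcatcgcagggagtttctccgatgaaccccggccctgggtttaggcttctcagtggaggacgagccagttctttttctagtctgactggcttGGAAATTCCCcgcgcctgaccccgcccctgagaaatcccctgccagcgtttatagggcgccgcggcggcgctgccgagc
Nfkbie, chr17:45555450-45555749, plus strand: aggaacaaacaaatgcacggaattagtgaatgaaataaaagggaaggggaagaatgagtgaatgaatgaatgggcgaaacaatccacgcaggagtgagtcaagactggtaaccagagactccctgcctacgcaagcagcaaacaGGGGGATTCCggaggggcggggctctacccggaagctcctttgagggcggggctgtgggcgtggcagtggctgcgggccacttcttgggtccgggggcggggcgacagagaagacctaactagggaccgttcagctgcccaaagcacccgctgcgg
Tnfaip3, chr10:19015361-19015660, minus strand: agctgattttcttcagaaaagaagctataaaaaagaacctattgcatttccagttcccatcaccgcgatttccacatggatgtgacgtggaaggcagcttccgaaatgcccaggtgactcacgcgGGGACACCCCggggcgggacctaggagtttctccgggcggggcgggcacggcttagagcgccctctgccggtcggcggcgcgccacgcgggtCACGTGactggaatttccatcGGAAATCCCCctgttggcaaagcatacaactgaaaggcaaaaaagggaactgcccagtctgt
Rela, chr19:5637291-5637590, plus strand: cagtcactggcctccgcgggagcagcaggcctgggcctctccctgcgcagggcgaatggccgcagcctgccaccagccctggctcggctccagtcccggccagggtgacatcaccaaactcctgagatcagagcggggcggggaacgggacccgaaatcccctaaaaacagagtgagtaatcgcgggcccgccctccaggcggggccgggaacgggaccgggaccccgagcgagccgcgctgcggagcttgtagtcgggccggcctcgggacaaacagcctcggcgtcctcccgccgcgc
In the *Nfkbia* window, the match GGAAATTCCC began at position -29 from the start. In *Nfkb2*, the matches GGGAATTCCC at -39 and GGAATTCCCC at -38 overlapped in a single stretch, and GGGGCTTTCC lay at -11 of the window shown. Of its windows not shown, chr19:46305445-46305744 held GGAATGTCCC at -236 and GGGACTTTCC at 10, and chr19:46305680-46305979, which overlaps it, held GGGACTTTCC at -225, the same site counted from another start. The *Nfkbie* match, GGGGGATTCC, began at -106. In the *Tnfaip3* window shown, kappaB matches began at -125 and -12, with the E-box between them at -33. The *Rel* window, not shown, held GGGAAATCCC at -92 and GGAAATCCCC at -91, which overlapped in a single stretch. *Rel* and *Tnfaip3* thus had kappaB matches although neither passed the test for a difference between the genotypes.

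The libraries held from 16674678 to 19742726 counts. Libraries of one genotype differed from each other by more than counting noise, and KO1 stood furthest from its group (chi-square per degree of freedom 7.91 against KO2 and 7.92 against KO3, and 2.66 between KO2 and KO3), so the members that changed are also given without it. *Mlx* had 128, 96 and 98 counts in the WT testes against 94, 109 and 102 in the MLX KO testes. The deletion left other *Mlx* exons in place, and 385 bases of *Mlx* exon are shared with *Psmc3ip*, on the opposite strand. Reads from either may be in this count, so it does not check the genotype labels. Defining testis markers were abundant in every library, with a summed CPM (the count scaled to a common library size, after the TMM correction for composition) of 6 elongating spermatid genes 17234.4 to 18075.9 in WT against 9815.5 to 12112.3 in MLX KO libraries. *Mlx* differed by an LFC (log2 fold change, MLX KO over WT) of -0.18 (adjusted p = 0.326 in the quasi-likelihood test of edgeR, adjusted by Benjamini-Hochberg over all 14640 genes, as for every adjusted p given here unless stated).

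Coordinates are those of mm10, the build of the deposited counts. Of the subunit genes, *Nfkb2* spans chr19:46300994-46312400 (plus strand), *Rela* chr19:5637442-5648134 (plus), *Relb* chr7:19606217-19629438 (minus), *Nfkb1* chr3:135584655-135691969 (minus) and *Rel* chr11:23736847-23770969 (minus). Of the inhibitor genes, *Nfkbia* spans chr12:55489409-55492647 (minus), *Nfkbib* chr7:28758251-28766644 (minus), *Nfkbie* chr17:45555700-45563169 (plus), *Nfkbiz* chr16:55811375-55838954 (minus) and *Tnfaip3* chr10:19000910-19015410 (minus). The deposited count is 1 value per gene symbol, so isoforms are not told apart.

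The 5 subunits fell into those that were higher and those that were not distinguishable between the genotypes. The non-canonical pair, *Nfkb2* and *Relb*, rose in MLX KO testes, and *Nfkb1*, *Rela* and *Rel* did not pass the test. *Nfkb2*, the precursor of the DNA-binding subunit of the non-canonical arm, had 76, 50 and 53 counts in WT1 to WT3 and 136, 146 and 151 in KO1 to KO3, the order in which values are given throughout. Every MLX KO library lay above every WT library, also in CPM, at 4.01, 3.18 and 2.99 CPM against 7.02, 8.08 and 7.99. The mean was 3.39 ± 0.541 CPM in WT against 7.7 ± 0.59 in MLX KO testes (SD, n = 3 each). This was an LFC of 1.17 (SE 0.15, 95% interval 0.84 to 1.5, adjusted p = 0.000147), 2.26-fold, and it was higher in 3 of 3 pairs. Without KO1, the LFC was 1.24. *Nfkb2* shares 299 bases of exon with *Psd*, on the opposite strand, and 531 with the opposite-strand non-coding RNA AC114539.1, which has no row in the table used. The strandedness of the libraries was not stated in the sources used here. *Psd* itself differed by an LFC of -0.02 (adjusted p = 0.809).

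*Relb*, the activating partner of processed *Nfkb2*, had 68, 67 and 74 counts in the WT testes against 127, 145 and 134 in the MLX KO testes. Again no library of one genotype reached the range of the other. The mean rose from 4.01 ± 0.367 CPM to 7.22 ± 0.744 (SD, n = 3 each), 1.8-fold. The LFC was 0.85 (SE 0.14, 95% interval 0.54 to 1.16, adjusted p = 0.000718), with 0.87, 0.91 and 0.77 in pairs 1, 2 and 3, and 0.92 without KO1. The pairs thus lay close together for *Relb*, while *Nfkb2* differed less in pair 1 (0.81) than in pairs 2 and 3 (1.35 and 1.42). In bulk tissue, a higher level per cell and a larger share of the cells that carry a transcript cannot be told apart, for these and all other members.

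*Rela*, the activating subunit of the canonical dimer, had 1049, 820 and 967 counts in the WT testes against 1067, 1014 and 1009 in the MLX KO testes. At 54.0 ± 1.65 and 54.9 ± 1.35 CPM (SD, n = 3 each) the groups overlapped, with an LFC of 0.02 and a 95% interval of -0.09 to 0.14 (adjusted p = 0.758). Its upper bound corresponds to 1.1-fold. *Nfkb1*, whose product pairs with RELA, had 273, 245 and 322 counts in the WT testes against 274, 298 and 345 in the MLX KO testes, and its ranges overlapped almost fully. Its LFC was 0.02 (95% interval -0.23 to 0.28, adjusted p = 0.889). *Rel*, a subunit best known from lymphoid cells, was the least abundant per length and had 44, 35 and 47 counts in the WT testes against 44, 57 and 62 in the MLX KO testes. It was higher in 2 of 3 pairs, with an LFC of 0.27 (95% interval -0.18 to 0.72, adjusted p = 0.301), an interval that includes both no change and the size seen for *Nfkbie*. With library size alone as the scaling, *Rela* passed the threshold with an LFC of 0.16, and that scaling moved the median of all genes by 0.14.

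**Figure D1:**
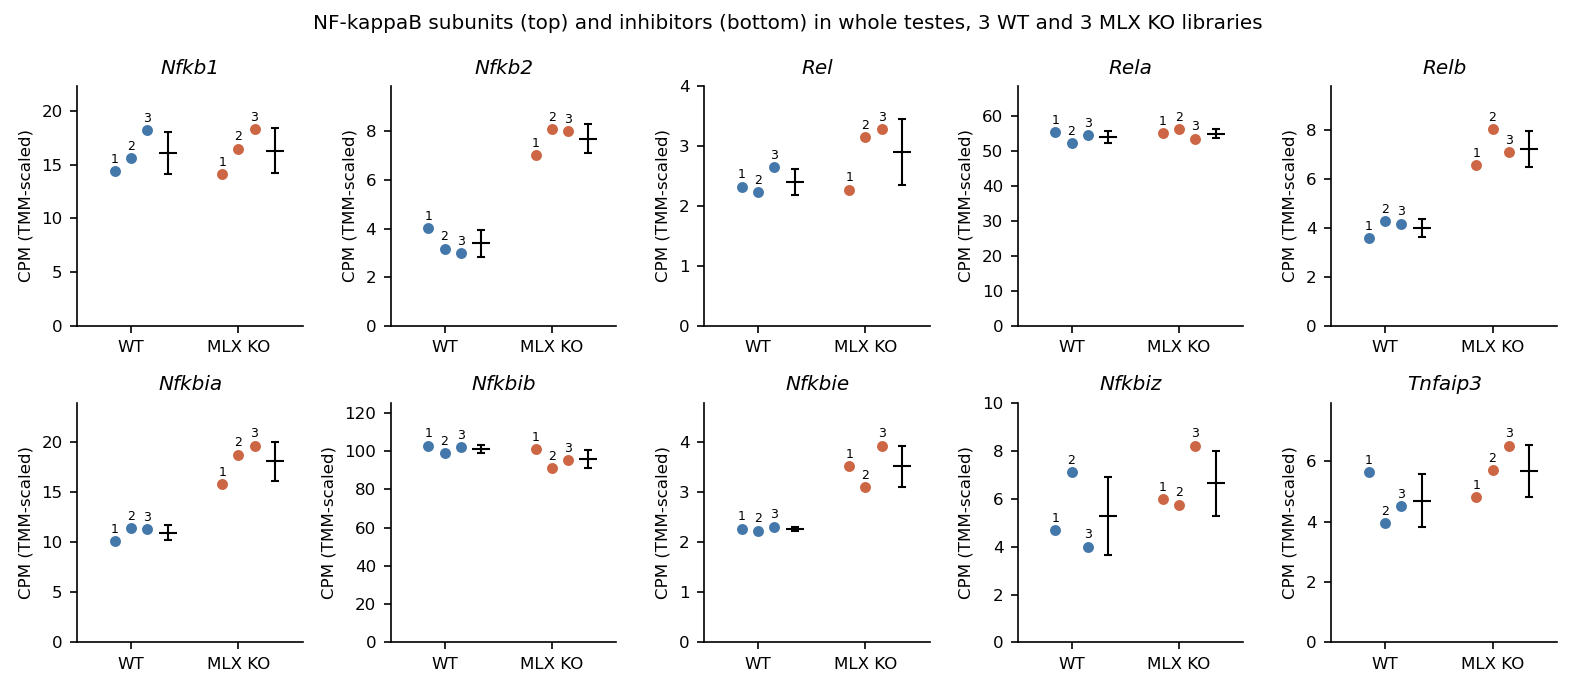
CPM (vertical axes, from 0) of each of the 5 subunits (top row) and 5 inhibitors (bottom row) in 3 WT and 3 MLX KO libraries, with points numbered by littermate pair and black bars giving mean ± SD (n = 3). *Nfkb2*, *Relb*, *Nfkbia* and *Nfkbie* show no overlap between genotypes, and the other 6 genes do.

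Of the inhibitors, *Nfkbia* and *Nfkbie* rose and *Nfkbib*, *Nfkbiz* and *Tnfaip3* did not pass the test. *Nfkbia* encodes IkappaB-alpha, the rapidly resynthesized inhibitor, and had 191, 179 and 200 counts in the WT testes against 306, 338 and 370 in the MLX KO testes. All MLX KO values lay above all WT values, from 15.8 to 19.6 CPM against 10.1 to 11.4. The LFC was 0.73 (SE 0.11, 95% interval 0.49 to 0.96, adjusted p = 0.000322), 1.65-fold, with 0.65, 0.72 and 0.8 in pairs 1 to 3 and 0.82 without KO1. *Nfkbie*, which encodes IkappaB-epsilon, a later feedback inhibitor, had 43, 35 and 41 counts in the WT testes against 68, 56 and 74 in the MLX KO testes. In WT it lay from 2.23 to 2.31 CPM, and the groups did not overlap. Its LFC was 0.63 (SE 0.18, 95% interval 0.24 to 1.01, adjusted p = 0.0132), higher in 3 of 3 pairs and 0.63 without KO1. This call depended on the tool and on the library labelled KO3. With DESeq2, the LFC was 0.6 (adjusted p = 0.0827), with DESeq2 and a block for the pair it was 0.59 (adjusted p = 0.21), and without KO3, in edgeR, it was 0.55 (adjusted p = 0.0606). With the block in edgeR it held (adjusted p = 0.0159).

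*Nfkbib*, the IkappaB-beta gene and the most abundant member, had 1949, 1554 and 1813 counts in the WT testes against 1956, 1648 and 1803 in the MLX KO testes. Its CPM values, 98.8 to 102.8 in WT and 91.2 to 100.9 in MLX KO, overlapped, although the MLX KO library was the lower in 3 of 3 pairs. The LFC was -0.08 (95% interval -0.19 to 0.03, adjusted p = 0.229), and with library size alone the sign turned, to 0.06. *Nfkbib* shares 314 bases of exon with *Ccer2*, which has no row in the table used, and 42 with *Sirt2*, whose LFC was -0.17 (adjusted p = 0.0116). *Nfkbiz*, an atypical nuclear IkappaB that acts as a coactivator at some promoters, had 89, 112 and 71 counts in the WT testes against 116, 104 and 155 in the MLX KO testes. WT2, at 7.12 CPM, was above KO1 and KO2, and the LFC of 0.35 (95% interval -0.12 to 0.81, adjusted p = 0.208) rested on pairs that differed by 0.35, -0.31 and 1.04. Without WT2 it was 0.61 (adjusted p = 0.0368). *Tnfaip3*, a ubiquitin-editing enzyme that ends receptor signaling, had 107, 62 and 80 counts in the WT testes against 93, 103 and 123 in the MLX KO testes. Its pairs differed by -0.23, 0.53 and 0.53, and its LFC was 0.26 (95% interval -0.12 to 0.64, adjusted p = 0.237).

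In all, 4 of the 10 members passed the test, all higher in MLX KO testes. Among all 14640 genes tested, 45.4% passed, so the members were called no more often than genes at large. By direction, 40.0% of the members were higher against a background of 24.8%, and 0 were lower against 20.6%. The same 4 genes were those whose ranges did not overlap and lay higher in MLX KO, which held for 30.3% of all genes. The median LFC was 0.31 over the members and 0.03 over all genes. Without KO1, edgeR again called 4 members, all higher.

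**Figure D2:**
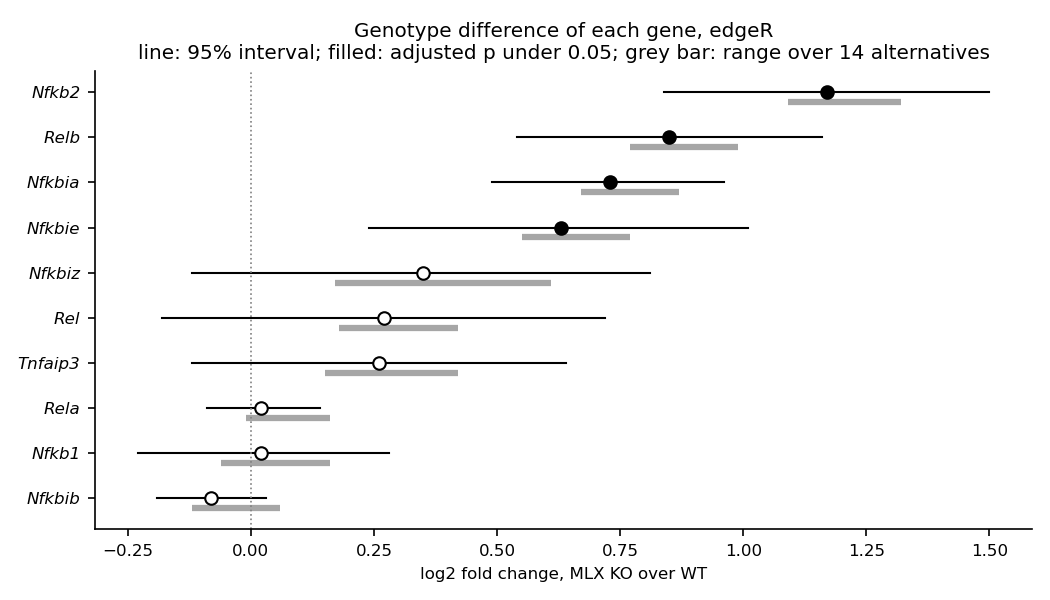
LFC of MLX KO over WT (horizontal axis, log2) for the 10 members, with 95% intervals (black lines), filled circles for an adjusted p under 0.05 in edgeR, and grey bars for the lowest and highest value over 14 alternative analyses. *Nfkb2* ranged from 1.09 to 1.32 and *Nfkbie* from 0.55 to 0.77 over the alternatives, and the bars of *Nfkb1*, *Rela* and *Nfkbib* cross 0.

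Compared per length, as CPM per kilobase of curated RefSeq exon, the order of the members in WT was led by *Nfkbib* (47.7 ± 1.01), *Rela* (20.3 ± 0.619), *Nfkbia* (6.91 ± 0.462) and *Nfkb1* (3.9 ± 0.467; SD, n = 3 each), with no overlap between these neighbours. Below them came *Relb* (1.82), *Nfkbiz* (1.36), *Nfkb2* (1.03), *Tnfaip3* (1.02) and *Nfkbie* (0.93), and the neighbours among these 5 overlapped. *Rel* was lowest at 0.321 ± 0.0299. In MLX KO testes, *Nfkb2* (2.34) stood above *Nfkbiz* (1.71), and *Nfkbie* (1.44) above *Tnfaip3* (1.23). With exon lengths from GENCODE, *Nfkb1* fell to 1.33 in WT, because its exons there sum to 12061 bases instead of 4118, and the order among the 5 genes below it also changed.

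The make-up of the subunit transcripts shifted accordingly. Of the summed CPM per kilobase of the 5 subunit genes, *Nfkb2* and *Relb* together made up 10.4%, 10.9% and 9.99% in WT against 17.3%, 19.3% and 18.5% in MLX KO libraries. *Rela* made up 73.0% to 75.8% in WT libraries against 65.6% to 70.1% in MLX KO libraries. With GENCODE lengths, the joint share of *Nfkb2* and *Relb* was lower in both genotypes, at 8.09% to 8.8% and 14.2% to 16.0%. These shares restate the levels above and were not tested.

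**Figure D3:**
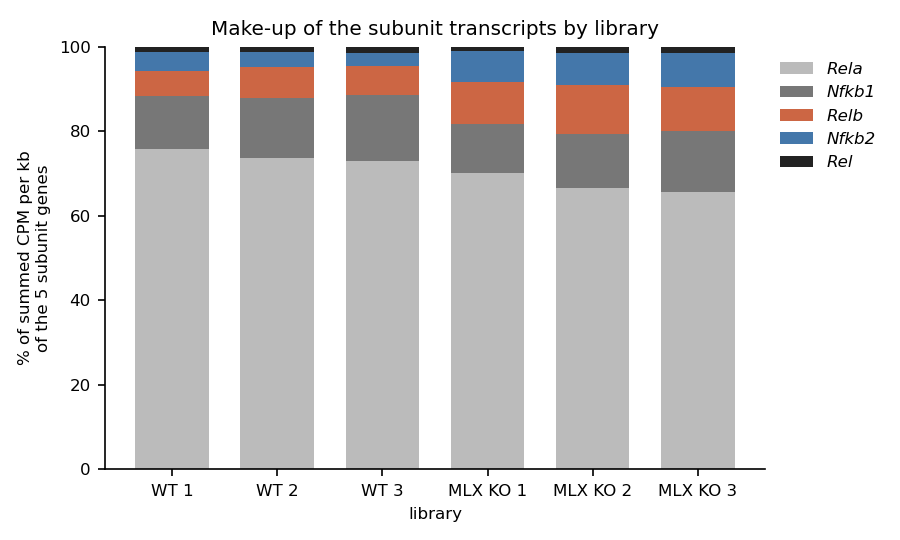
Share (vertical axis, % of summed CPM per kilobase of RefSeq exon) of each of the 5 subunit genes in each library (horizontal axis). *Nfkb2* and *Relb* together take up 9.99% to 10.9% of the bars in WT and 17.3% to 19.3% in MLX KO libraries.

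Ratios of counts within a library do not depend on how libraries are scaled. *Nfkb2* had 0.278, 0.204 and 0.165 counts for each count of *Nfkb1* in WT and 0.496, 0.49 and 0.438 in MLX KO libraries. The ratio of *Relb* to *Rela* was 0.0648, 0.0817 and 0.0765 in WT against 0.119, 0.143 and 0.133 in MLX KO libraries. For both pairs of genes the genotypes did not overlap. Among the inhibitors, *Nfkbia* to *Rela* lay between 0.182 and 0.218 in WT and reached 0.287 to 0.367 in MLX KO libraries. *Nfkbie* to *Nfkbib* was 0.0221, 0.0225 and 0.0226 in WT against 0.0348, 0.034 and 0.041 in MLX KO libraries. The ratios were chosen with the members' values known and are given without a test.

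**Figure D4:**
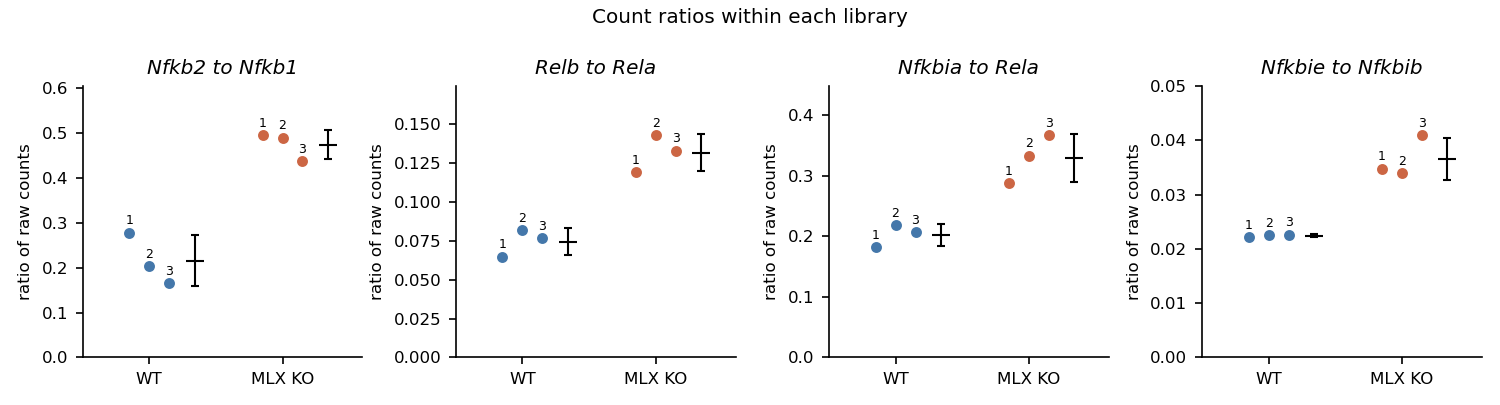
Ratio of raw counts of the named gene pairs (vertical axes, from 0) in 3 WT and 3 MLX KO libraries, with points numbered by littermate pair and black bars giving mean ± SD (n = 3). In each of the 4 panels, every MLX KO library lies above every WT library.

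The genes around the members were read from lists by role. Of 90 other pathway genes, 71 could be tested, of which 33 (46.5%) were higher in MLX KO and 3 were lower, against 24.8% higher and 20.6% lower among all genes tested. Their median LFC was 0.35. Of the ligands, 4 of 10 could be tested and 1 (25.0%) rose, a share near that of all genes. This was *Tnfsf12*, which encodes the cytokine TWEAK, an activator of the non-canonical arm, with 25, 19 and 20 counts in the WT testes against 52, 73 and 43 in the MLX KO testes (LFC 1.29, SE 0.26, adjusted p = 0.00224). *Tnf* had 0 to 3 counts in each library and *Lta* 1 to 4, which was too low to test. Of the receptors, 9 of 11 tested (81.8%) rose and 0 fell, with a median LFC of 1.23. Among those that rose, *Tnfrsf11a* had 3, 5 and 7 counts in the WT testes against 16, 15 and 15 in the MLX KO testes. It had enough counts to test only through the MLX KO libraries. The same held for *Tlr4* (9, 12 and 13 counts in WT) and *Tlr2* (10, 12 and 17). *Cd40*, with 6 to 10 counts in each library, was not tested. *Tnfrsf12a*, the TWEAK receptor, went from 17, 21 and 18 counts in the WT testes to 117, 156 and 150 in the MLX KO testes (LFC 2.8, SE 0.21, adjusted p = 6.82e-06). *Il1r1*, the signaling receptor of interleukin-1, was 3.68-fold higher (LFC 1.88, adjusted p = 3.97e-07) and *Tnfrsf1a*, a TNF receptor, 2.24-fold (LFC 1.16, adjusted p = 7.98e-06).

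Of the adaptors and ubiquitin ligases, 5 of 19 tested (26.3%) were higher, near the 24.8% of all genes, and 1 was lower. *Birc3*, a ubiquitin ligase that restrains the kinase of the non-canonical arm, had an LFC of 1.12 (adjusted p = 7.97e-05), and *Irak1*, a kinase of the interleukin-1 and Toll-like receptor pathway, one of 0.81 (adjusted p = 0.000219). *Traf1*, itself described as an NF-kappaB target, went the other way, from 142, 112 and 165 counts in the WT testes to 56, 68 and 93 in the MLX KO testes, which gave an LFC of -1.05 (SE 0.19, adjusted p = 0.00116). Of the kinases, 4 of 10 (40.0%) rose and 0 fell. *Ikbkg* and *Chuk*, subunits of the IkappaB kinase complex, had LFCs of 0.57 and 0.44 (adjusted p = 0.00134 for each), and *Tab3*, an adaptor of the upstream kinase TAK1, 0.46 (adjusted p = 0.000705). *Ikbkb*, another subunit of that complex, did not pass (LFC -0.03, adjusted p = 0.752). Neither did *Map3k14*, the kinase of the non-canonical arm (LFC 0.07, adjusted p = 0.706).

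Of the other nuclear IkappaBs and brakes, 4 of 10 tested (40.0%) were higher and 1 was lower. *Tnip1*, a partner of the *Tnfaip3* product, had an LFC of 0.91 (adjusted p = 4.07e-05), *Pdlim2* one of 1.14 (adjusted p = 0.000469) and *Bcl3*, a nuclear IkappaB, one of 1.37 (adjusted p = 0.00103). *Commd1* was lower by a small margin (LFC -0.2, adjusted p = 0.0266), a call lost in 6 of 14 alternatives. Among these were library size alone (LFC -0.06, adjusted p = 0.44) and leaving out WT1, WT2, KO2 or KO3 (LFC -0.17, -0.21, -0.15 and -0.18). Of the 17 textbook target genes that could be tested, 10 (58.8%) were higher and 1 lower, with a median LFC of 1.07. Among those higher, *Mmp9* had 7, 11 and 7 counts in the WT testes against 32, 26 and 30 in the MLX KO testes. It had enough counts to test only through the MLX KO libraries. The complement gene *C3* went from 159, 119 and 205 counts in the WT testes to 1215, 1340 and 1396 in the MLX KO testes (LFC 2.93, SE 0.13, adjusted p = 1.94e-07), and *Lcn2*, which encodes the iron-sequestering protein lipocalin, from 1338, 1576 and 2189 to 9856, 13245 and 13846 (LFC 2.75, SE 0.19, adjusted p = 3.32e-06). *Vcam1*, an adhesion molecule, had an LFC of 1.54 (adjusted p = 7.98e-06). *Bcl2l1*, an inhibitor of apoptosis, was lower (LFC -0.16, adjusted p = 0.0168), a call lost in 5 of 14 alternatives. Among these were library size alone (LFC -0.02, adjusted p = 0.754) and leaving out WT2, WT3 or KO2 (LFC -0.14, -0.15 and -0.14). Several inflammatory targets were almost unread: *Il6* had 0 to 2 counts in each library, *Cxcl1* 0 to 5 and *Ccl2* 1 to 4.

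**Figure D5:**
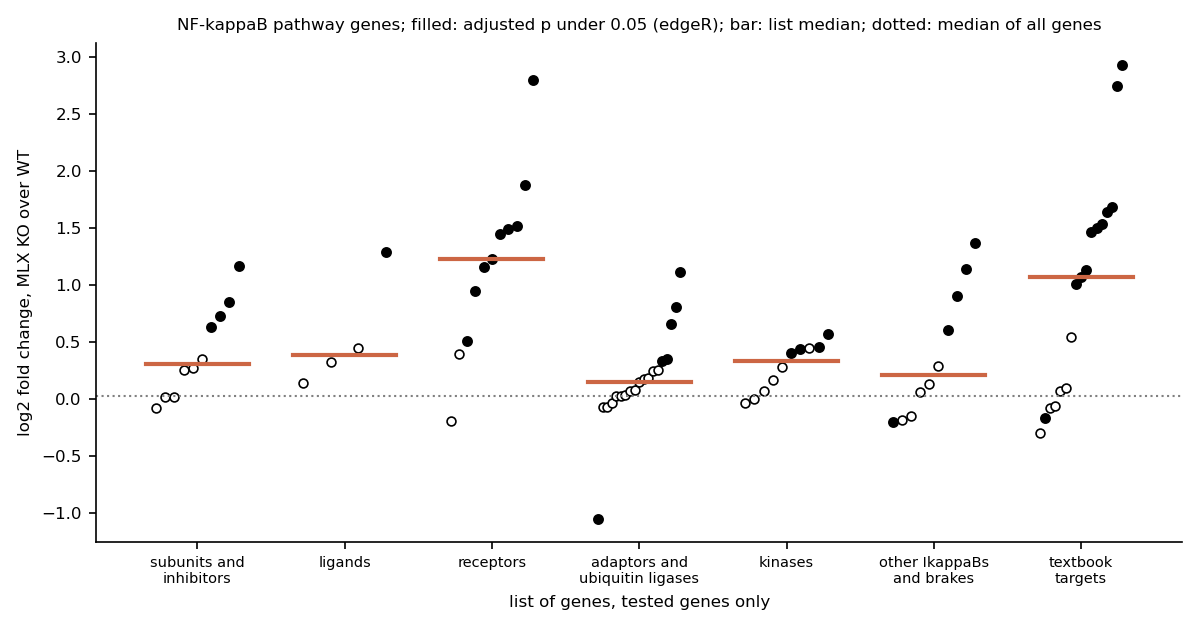
LFC of MLX KO over WT (vertical axis, log2) of each tested gene, by list (horizontal axis), with filled circles for an adjusted p under 0.05 in edgeR, coloured bars for list medians and a dotted line for the median of all genes (0.03). The list medians were highest for receptors (1.23) and targets (1.07), and that of the subunits and inhibitors was 0.31.

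Markers of several cell types also differed between the genotypes. All 6 pan-leukocyte genes were higher in MLX KO testes, with summed CPM of 10.4 to 13.6 in WT and 28.1 to 36.8 in MLX KO libraries. Of these, *Cd52* had 5, 14 and 4 counts in WT and enough counts to test only through the MLX KO libraries. All 9 macrophage genes tested were also higher (93.1 to 98.4 against 194.5 to 207.1). For *Cx3cr1* the call was borderline (LFC 0.74, adjusted p = 0.0494), with overlapping groups and a difference of -0.09 in pair 3. Of 8 lymphocyte genes, 2 could be tested and 0 were called (2.48 to 4.45 against 3.43 to 6.24), and *Cd3g* and *Cd79a* were at 0 in 2 libraries each. Of the neutrophil genes, 2 could be tested and 1, *Mpo*, was lower (LFC -1.84, adjusted p = 0.000459). The other, *Csf3r*, was not called (LFC 0.01, adjusted p = 0.99). The summed CPM of the list was 4.57 to 5.64 against 1.96 to 2.88, and *Mpo* alone went from a mean of 3.97 CPM to 1.11. *S100a8* was at 0 in 5 libraries, *S100a9* in 4 and *Elane* in 2. All 7 Leydig genes (840.5 to 865.5 against 1821.7 to 2387.9) and all 8 Sertoli genes (361.3 to 365.5 against 495.5 to 597.1) were higher. So were 4 of 5 peritubular myoid genes (72.1 to 87.1 against 108.1 to 119.1). Only 2 of 7 endothelial genes (36.5 to 45.6 against 52.6 to 59.1) were higher, and 2 of 7 spermatogonial genes (107.3 to 114.9 against 130.1 to 140.6). That is 28.6% for each, a share near the 24.8% of all genes tested. Genes of later germ cells were lower: 6 of 8 for spermatocytes (1874.9 to 1942.9 against 1609.4 to 1713.4), 6 of 6 for round spermatids (1635.6 to 1671.1 against 1372.7 to 1453.7) and 6 of 6 for elongating spermatids. Among all genes tested, 20.6% were lower. The median LFC was small for spermatocytes (-0.21) and round spermatids (-0.26) and larger for elongating spermatids (-0.75). Scaling by library size alone moved the median of all genes by 0.14, and these lists were not read with that scaling. The part of these cell types in the difference of *Nfkb2*, *Relb*, *Nfkbia* and *Nfkbie* was not tested.

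Over the 6 libraries, the genes whose pattern was most like that of *Nfkb2*, the member with the lowest adjusted p, were *Sh3bp2* (root mean square difference of 0.065 on the scale of gene-centred log2 CPM), *Slc43a1* (0.0808) and *Rhoc* (0.0824). They were picked for that likeness, so an LFC close to that of *Nfkb2* follows from the choice. *Sh3bp2* had 127, 96 and 99 counts in the WT testes against 237, 272 and 272 in the MLX KO testes, with an LFC of 1.18. *Rhoc*, a small GTPase, had an LFC of 1.3. *Slc43a1*, with an LFC of 1.44, rested on few reads, 4 to 8 counts in each WT and 16 to 17 in each MLX KO library. It had enough counts to test only through the MLX KO libraries.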

How the data were processed

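Whole testes RNA from 3 WT and 3 MLX KO males was sequenced, and the authors deposited raw counts of reads per gene symbol and library, aligned to mm10 with TopHat per the labels. The counting tool, its annotation and strandedness were not given in the sources used here. The authors also deposited columns of their own comparison in it (mean signal, log2 fold change, SE, statistic, p-value and adjusted p-value), which was not used. ChIP-Seq samples were not analysed here.

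Of 17933 rows, 2 repeated another row and were used once. Counts were filtered with filterByExpr (minimum count 10), scaled by TMM and tested with genotype as the only term in edgeR 4.0.16 (quasi-likelihood, two-sided, Benjamini-Hochberg over 14640 genes, R 4.3.3), at an adjusted p of 0.05. SEs were derived from the F statistic. The code was tested on simulated data. Counts of all libraries of one genotype differed beyond sampling noise, so none was a duplicate. Same-numbered libraries come from littermate pairs, and deviations from the group means correlated at 0.145, 0.0363 and 0.121 within pairs and between -0.123 and 0.033 otherwise. Alternatives were DESeq2 1.42.0, edgeR and DESeq2 each with a block for the pair, scaling by upper-quartile factors, by the size factors of DESeq2 or by library size only, no filter, at least 1 CPM in 3 libraries, each library left out in turn, and an unadjusted p of at most 0.05. RefSeq exon lengths were preferred to GENCODE's after seeing the data, and both are given.

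The members, gene lists and tests were chosen with earlier results of these data known. Genes named were all members, *Mlx* and the 3 genes most like the member with the lowest adjusted p. From each pathway list, the 3 genes with the lowest adjusted p past the threshold were named, and any that went against the list's majority. *Psd* and *Sirt2* were added as exon neighbours. *Ikbkb*, *Map3k14*, *Mpo*, *Csf3r*, *Cx3cr1* and the genes named for few counts, tested or not, were chosen after their values were seen. Promoter windows and their sequences are from RefSeq on GRCm38.p6, the assembly of mm10.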

Additional observations from a re-analysis of the deposited data

How the results depend on the processing

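*Nfkb2*, *Relb* and *Nfkbia* kept their direction and their call in 14 of 14 alternatives, with LFCs of 1.09 to 1.32, 0.77 to 0.99 and 0.67 to 0.87. *Nfkbie* lost its call in 3, as given above. The LFC of *Nfkb1* was -0.01 with DESeq2, with or without the replicate block, -0.00 with DESeq2's size factors, -0.05 without WT1 and -0.06 without KO3, and that of *Rela* was -0.01 with DESeq2 with or without the block, -0.00 with its size factors and -0.00 without WT2. With libraries left out in turn, *Nfkb1* ranged from -0.06 to 0.12 and *Rela* from -0.00 to 0.05. *Nfkbib* turned to 0.06 with library size alone. Neither *Nfkb1* nor *Nfkbib* passed the threshold in any alternative, and *Rela* did so with library size alone. Members called numbered 3 to 5 over all alternatives.

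With the replicate block, edgeR called 6743 genes and 4 members, and DESeq2 called 4579 genes (2193 higher) and 3 members. With library size alone, 5343 genes were higher and 1268 lower, so that 80.8% of calls were higher instead of 54.7%. Of the other pathway genes, 1 was lower with library size alone. With libraries left out in turn, 1 to 4 of them were lower, with 1 when WT2 or KO2 was left out. *Commd1* lost its call in 6 alternatives, *Bcl2l1* in 5 and *Slc43a1* in 2. The 95% intervals of *Rel*, *Nfkbie* and *Nfkbiz*, which had 35 to 155 counts in each library, span -0.18 to 0.72, 0.24 to 1.01 and -0.12 to 0.81. The causes of these differences were not tested.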
